A study of Homo sapiens with 6 samples.

Results

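The subject here is the transcripts of respiratory complexes I, II and III in MDA-MB-231 cells with and without depletion of ING2. A gene was a member when a probe set was annotated to it alone and its symbol began with NDUF or UQCR, or was CYC1 or one of the SDH subunit genes. The table held 54 such genes of 19777 genes tested, with 106 probe sets, and each gene was represented by its brightest probe set, by the mean of the 6 arrays. Of the 54, 43 encode subunits (33 of complex I, 3 of complex II and 7 of complex III), 8 encode complex I assembly factors named NDUFAF, and 3 are noncoding transcripts that carry a subunit's name. The rule reads gene symbols and no measured value.

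The MDA-MB-231 line is a human breast cancer line of mesenchymal character, without estrogen receptor. All 6 arrays came from this line after lipid transfection of an siRNA: 3 received a non-targeting siRNA (controls) and 3 received 1 siRNA against ING2. With 1 siRNA, effects of ING2 loss and other effects of that siRNA cannot be told apart. Per the labels, RNA was taken 4 days after transfection in one field and 3 days in another. Nothing in the labels says that the arrays of a group came from separate cultures, so each p-value reflects only the spread among these samples, which may be technical. Each array gave 1 intensity value per probe set on a linear scale.

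The respiratory chain lies in the inner mitochondrial membrane and passes electrons from NADH and succinate to oxygen. Complex I oxidises NADH and complex II oxidises succinate, both reduce ubiquinone, and complex III passes the electrons on to cytochrome c; complexes I and III pump protons as they do so. Most subunits are encoded in the nucleus and imported, and many of their genes are known to be regulated by the transcription factors NRF1, GABPA and YY1.

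The target was depleted in the libraries so labelled. ING2, a PHD finger protein of a SIN3 histone deacetylase complex, read 1400, 1349 and 1324 units in the controls and 163, 188 and 161 after ING2 siRNA, 12.5% of control. The line's markers VIM, CD44 and AXL lay at the 99.6th, 96.2nd and 98.6th intensity percentiles, while ESR1 lay at the 40.9th, CDH1 at the 24.3rd, PTPRC at the 8.53rd and PGR at the 5.49th. Other markers of blood, endothelium or fibroblasts lay higher than PTPRC. PECAM1, LUM and PDGFRB were at the 55.3rd, 45.4th and 45.3rd percentiles, and CD3E, DCN and VWF at the 45.0th, 37.2nd and 34.2nd. Median intensity was 75.6 to 77.1 in the controls and 78.3 to 81.4 after ING2 siRNA, the interquartile range on the log2 scale was 3.33 to 3.38 against 3.11 to 3.27, and the 3' minus 5' log2 difference of the GAPDH control probe sets was 0.19 to 0.22 against 0.27 to 0.35. None of these 3 measures overlapped between the groups, whereas the same difference for ACTB did (0.37 to 0.58 against 0.48 to 0.65). Their part in the results below was not tested.

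Transcripts of 5 members fell and 1 rose. The 5 that fell are subunits spread over all 3 complexes: NDUFA5 (59.1% of control) and NDUFS1 (78.3%) of complex I, SDHD (68.3%) of complex II, and UQCRB (77.8%) and UQCRC2 (79.7%) of complex III. The 1 that rose is NDUFB2-AS1, a noncoding antisense transcript (129%). The test was limma on log2 values over all genes with Benjamini-Hochberg adjustment, at adjusted p under 0.05. By this rule 8.29% of all genes were called, 4.67% as lower and 3.62% as higher. The members' 11.1% called, 9.26% lower and 1.85% higher, can be read against these shares and against the brightest 10% of genes, where 7.79% were lower and 0.556% higher. Among those brightest genes were 39 of the 54 members. The share of members called lower was thus close to that of the brightest genes. After quantile normalization or cyclic loess 2 members were lower, NDUFA5 and SDHD in both, against 3.16% and 3.45% of all genes. After median centring 7 were lower and 0 higher, against 7.33% and 1.31% of all genes. With any 1 of 4 arrays left out (replicate 2 or 3 of the control, replicate 1 or 3 of ING2 siRNA) limma called no member, and 9 to 15 had an unadjusted p under 0.05. In RNA from whole cultures, fewer cells with a transcript and less transcript per cell cannot be told apart.

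**Figure D1:**
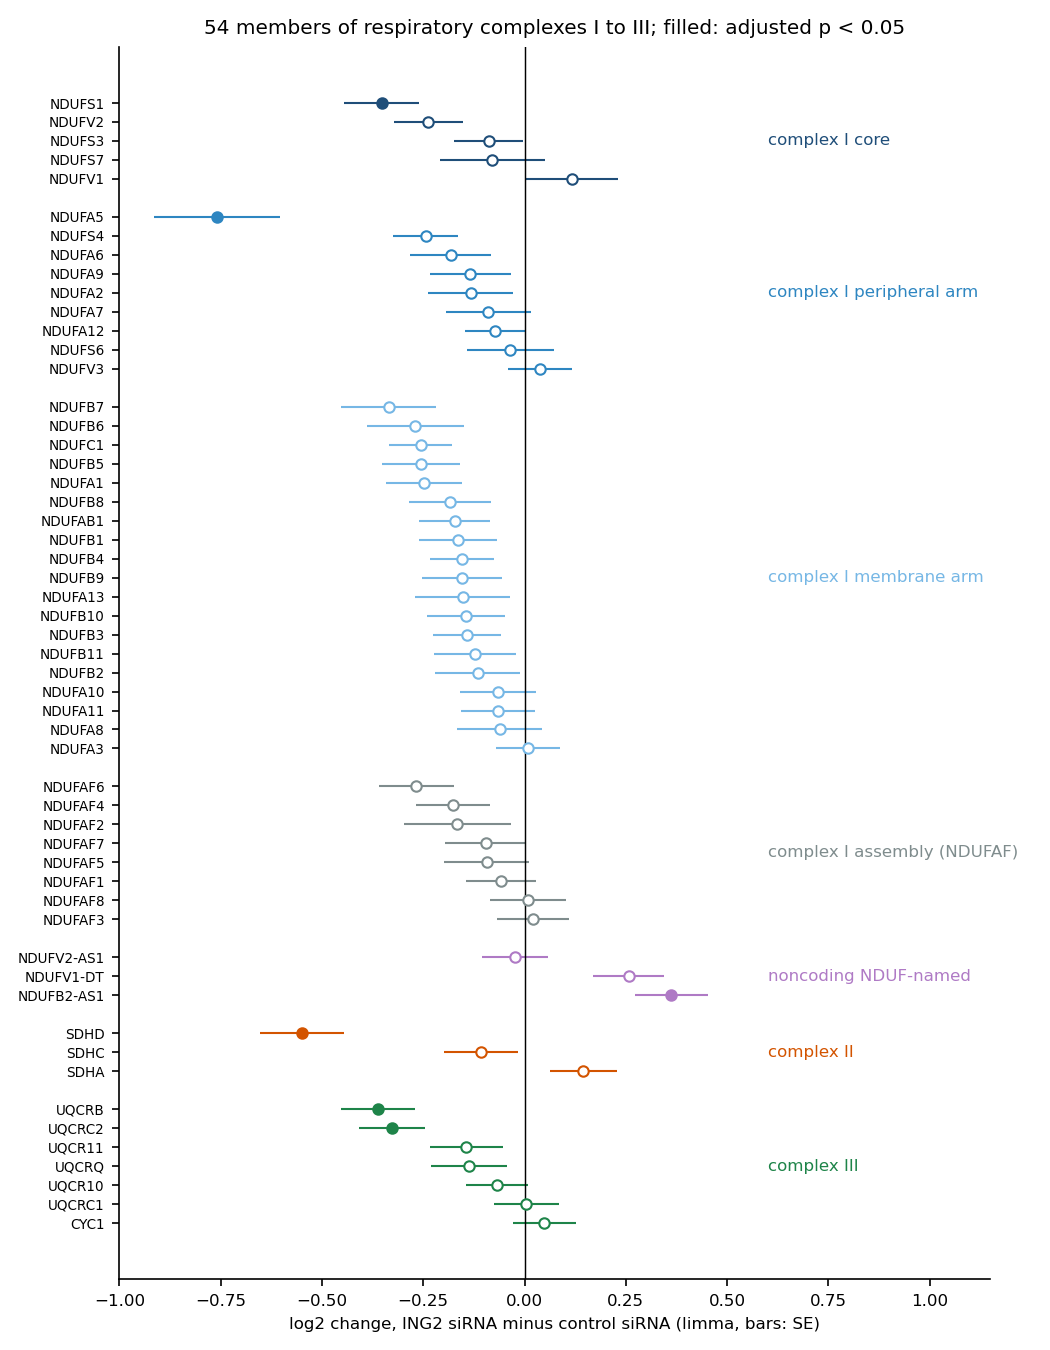
Log2 change (ING2 siRNA minus control, horizontal axis; bars, SE) of the 54 members, ordered within 7 groups, with filled points for adjusted p under 0.05. The 5 filled points left of 0 lie in 4 groups, the only filled point right of 0 is NDUFB2-AS1, and no membrane arm subunit is filled.

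The member furthest below control was NDUFA5, a small accessory subunit of the peripheral arm of complex I. Its probe set 201304_at read 1192, 1504 and 1844 units in the controls and 755, 995 and 909 after ING2 siRNA. Every ING2 siRNA array was below every control, and the controls themselves differed more among each other than for the other members that fell. The log2 change was -0.76 (SE 0.15, n = 3 arrays in each group, limma Benjamini-Hochberg adjusted p = 0.0287). By exact two-sided permutation p was 0.1, the lowest value possible with 3 arrays in each group, for NDUFA5 and for each of the 6 members called. The other probe set of NDUFA5, 215850_s_at, read 7.54 units in the controls and 6.75 after ING2 siRNA, near the bottom of the scale.

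SDHD is 1 of the membrane anchor subunits that tether succinate dehydrogenase and bind ubiquinone. Probe set 202026_at read 1560, 1879 and 1922 units in the controls and 1141, 1324 and 1189 after ING2 siRNA. The groups did not overlap, with a clear gap between the lowest control and the highest ING2 siRNA array. The log2 change was -0.55 (SE 0.10, limma adjusted p = 0.0251). The dimmer probe set 215652_at lay on the other side of 0. It read 74.9, 61.3 and 66.5 units in the controls and 80.4, 84.2 and 84.8 after ING2 siRNA, also without overlap (log2 change 0.30, limma adjusted p = 0.077 over probe sets). With the mean of the gene's probe sets in place of the brightest, SDHD had a log2 change of -0.12 (limma adjusted p = 0.228). Which transcripts each probe set detects was not analysed here.

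NDUFS1 carries iron-sulfur clusters in the electron path of complex I and is its largest subunit. Probe set 203039_s_at read 1058, 1168 and 1162 units in the controls and 960, 890 and 807 after ING2 siRNA. All ING2 siRNA arrays were below all controls, though the first array of each group came close to each other. The log2 change was -0.35 (SE 0.09, limma adjusted p = 0.0456).

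The sequences before the starts of NDUFA5, SDHD and NDUFS1 are shown because these are the members that fell whose windows hold a match to a motif of the factors named above. They are from RefSeq (GRCh38.p14), 5' to 3' on the gene's strand and ending at the base before the start, cut where another gene begins. Capitals mark exact matches on either strand to GCATGCGC (NRF1), CCGGAAG (GABPA and other ETS factors) or AAGATGG (YY1). NDUFA5 is chr7:123557819-123558068, minus strand, at 1 of its listed starts; SDHD is chr11:112086757-112086872, plus strand, up to its neighbour TIMM8B; NDUFS1 is chr2:206159445-206159608, minus strand, also at 1 of its listed starts, up to its neighbour EEF1B2.
NDUFA5: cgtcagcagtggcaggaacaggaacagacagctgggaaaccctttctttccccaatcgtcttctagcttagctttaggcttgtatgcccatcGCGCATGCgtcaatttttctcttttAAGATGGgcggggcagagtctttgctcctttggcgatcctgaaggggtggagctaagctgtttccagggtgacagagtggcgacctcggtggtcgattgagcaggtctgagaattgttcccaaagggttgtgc
SDHD: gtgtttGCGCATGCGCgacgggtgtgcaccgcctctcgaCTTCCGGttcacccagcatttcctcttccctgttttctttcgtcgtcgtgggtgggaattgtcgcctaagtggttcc
NDUFS1: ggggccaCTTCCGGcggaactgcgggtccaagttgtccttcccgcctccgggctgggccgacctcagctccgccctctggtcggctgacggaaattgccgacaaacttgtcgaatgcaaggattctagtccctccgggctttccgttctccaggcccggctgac

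In NDUFA5 an NRF1 match began 158 bases before the start and a YY1 match 133 bases before it. In SDHD 2 NRF1 matches that overlap each other began 110 and 108 bases before the start, and a GABPA match 77 bases before it. In NDUFS1 a GABPA match began 157 bases before the start. The windows at the other listed starts of NDUFA5 and NDUFS1 and that of UQCRC2 held none of the 3 motifs, and no window was matched for UQCRB. Promoter windows of 250 bases were matched for 48 members. The NRF1 motif was in 6 of them (12.5%), against 4.32% of all genes tested that had a window and 6.42% of those among the brightest 10% of genes. The GABPA motif was in 10 (20.8%), against 14.2% and 23.5%, and the YY1 motif in 2 (4.17%), against 4.38% and 5.60%. Of the 6 members with an NRF1 match, 2 fell (NDUFA5 and SDHD), and NDUFA6, NDUFB4, NDUFS6 and NDUFS7 did not pass the test. Of the 10 with a GABPA match, 2 fell (SDHD and NDUFS1), and NDUFA1, NDUFA13, NDUFAF4, NDUFAF8, NDUFB7, NDUFS3, UQCR11 and UQCRQ did not pass. Of the 2 with a YY1 match, NDUFA5 fell and NDUFA3 did not pass. Among genes of the brightest 10% with a window, 13.8% of those with the NRF1 motif were lower and 7.30% of those without it, 7.79% against 7.70% for GABPA and 8.42% against 7.68% for YY1. The members' counts are too few to be set against these shares. A match describes the letters only and is no evidence of binding.

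Complex III supplied the other pair of members that fell. UQCRB, a small matrix-side subunit that takes part in ubiquinone binding, read 9573, 9731 and 9823 units in the controls and 7897, 8139 and 6710 after ING2 siRNA (205849_s_at). The controls lay close together, all ING2 siRNA arrays were lower, and the third was the lowest. Its log2 change was -0.36 (SE 0.09, limma adjusted p = 0.0431), and its 3 other probe sets lay between -0.31 and -0.19. None of these 3 passed (limma adjusted p of 0.0798 to 0.232 over probe sets). The brightest of them, 209066_x_at, had -0.19 with overlapping groups. UQCRC2, a core protein of the matrix-facing part, read 2272, 2362 and 2399 units in the controls and 1966, 1903 and 1745 after ING2 siRNA (212600_s_at). Again no ING2 siRNA array reached the lowest control. Its log2 change was -0.33 (SE 0.08, limma adjusted p = 0.0421). A second bright probe set of UQCRC2, 200883_at, had a log2 change of -0.50 (SE 0.09, limma adjusted p = 0.018 over probe sets).

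**Figure D2:**
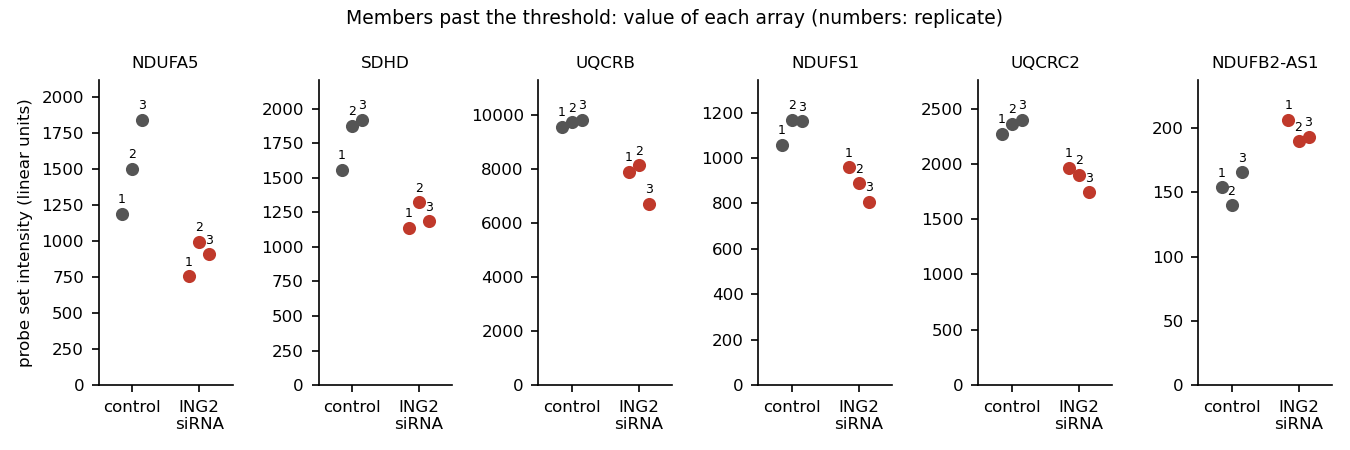
Intensity (linear units, vertical axis from 0) of the 6 members past the threshold in each array, with replicate numbers beside the points. Controls (grey) and ING2 siRNA arrays (red) do not overlap in any panel, and NDUFA5 shows the widest controls, from 1192 to 1844 units.

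The 5 other subunits of complex III did not pass the test. UQCRC1, the partner core protein of UQCRC2, read 4152, 3883 and 3816 units in the controls and 4131, 3932 and 3822 after ING2 siRNA. Its log2 change was 0.004 (SE 0.08). CYC1, the cytochrome c1 haem protein of complex III, had a log2 change of 0.05 (SE 0.08), and the small subunits UQCR10, UQCRQ and UQCR11 had -0.07, -0.14 and -0.14. Their limma adjusted p ran from 0.279 to 0.974, and UQCRC1 and CYC1 lay on the other side of 0 after median centring (-0.07 and -0.02), as did UQCR10 after quantile normalization (0.01) and cyclic loess (0.05).

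Among complex II members, SDHA, the flavoprotein that oxidises succinate, read 2907, 2615 and 2948 units in the controls and 3130, 3036 and 3189 after ING2 siRNA. The ING2 siRNA arrays were all above the controls, opposite to SDHD. Its log2 change of 0.15 (SE 0.08) did not pass the test (limma adjusted p = 0.24). SDHA has near-identical pseudogenes, so its value is uncertain. A further probe set annotated to SDHA together with those pseudogenes (230077_at) had a log2 change of -0.35 and did not pass either (limma adjusted p = 0.13). SDHC, the other membrane anchor, had a log2 change of -0.11 at its brightest probe set (SE 0.09, limma adjusted p = 0.427).

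SDHC had 7 probe sets, all below 0, and they differed in size. The 2 brightest, 202004_x_at and 210131_x_at, had log2 changes of -0.11 and -0.14. The next, 215088_s_at and 216591_s_at, had -0.33 (limma adjusted p = 0.0414 over probe sets) and -0.47 (0.0375). Probe set 216591_s_at read 961, 862 and 887 units in the controls and 743, 657 and 569 after ING2 siRNA. The groups did not overlap in this probe set, whereas they did in the brightest, which alone decides the gene's call.

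**Figure D3:**
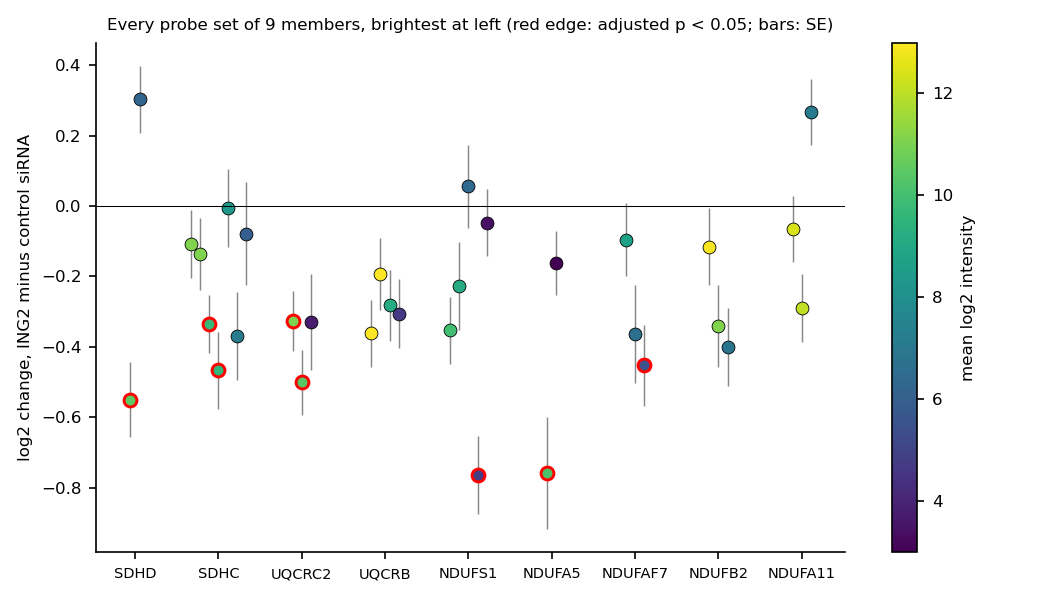
Log2 change (vertical axis; bars, SE) of every probe set of 9 members, brightest at left within each gene, coloured by mean log2 intensity, with a red edge for adjusted p under 0.05 over all probe sets. All 7 probe sets of SDHC and all 3 of UQCRC2 lie below 0, while SDHD, NDUFS1 and NDUFA11 have probe sets on both sides.

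Of the 54 members, 31 had several probe sets, which lay on 1 side of 0 for 18 and on both sides for 13. With each probe set tested on its own, 8 of the 106 member probe sets were lower and 1 higher, in 7 members. Over all probe sets that name 1 gene, 7.3% were called. UQCRB (limma adjusted p = 0.0506) and the main probe set of NDUFS1 (0.0537) did not pass in that fit. NDUFS1 had a dim probe set that did, 236356_at, with 32.7, 33.1 and 42.5 units in the controls and 21.1, 21.4 and 20.9 after ING2 siRNA (log2 change -0.76, limma adjusted p = 0.00783). The 5 probe sets of NDUFS1 lay on both sides of 0. Its others, 229647_at, 239268_at and 235321_at, had -0.23, 0.06 and -0.05 and did not pass (limma adjusted p of 0.249, 0.768 and 0.762). NDUFAF7, a complex I assembly factor named here after its values were seen, had a dim lower probe set as well, 220943_s_at (log2 change -0.45, limma adjusted p = 0.0469), while its brightest had -0.10.

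In complex I, the core subunits encoded in the nucleus carry the redox centres and the accessory subunits surround them. Of 5 core subunits measured, NDUFS1 fell and 4 did not pass the test, with a median log2 change of -0.09. NDUFV2, which carries an iron-sulfur cluster of the NADH-binding module, read 3494, 3568 and 3653 units in the controls and 3132, 3194 and 2776 after ING2 siRNA. The groups did not overlap, and the change was -0.24 (SE 0.08, limma adjusted p = 0.09). NDUFV1, the NADH-binding flavoprotein next to NDUFV2, had 0.12 (SE 0.11), with a first control (3864 units) above all other arrays. NDUFS3 and NDUFS7, which lie nearer to the ubiquinone site, had -0.09 and -0.08. Both were above 0 after quantile normalization (0.03 and 0.04) and cyclic loess (0.02 and 0.02).

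Of 9 accessory subunits of the peripheral arm, NDUFA5 fell and 8 did not pass, with a median of -0.13 and NDUFV3 as the highest at 0.04. NDUFS4, a late-assembling subunit of this arm, read 3559, 3557 and 3698 units in the controls and 3222, 3036 and 2885 after ING2 siRNA. The groups did not overlap (log2 change -0.24, SE 0.08, limma adjusted p = 0.0752). Of 19 accessory subunits of the membrane arm, none passed the test (5 at an unadjusted p under 0.05, against 648 of the 1978 brightest genes). Of the 19, 18 were below 0, with a median of -0.15 and a range of -0.33 (NDUFB7) to 0.01 (NDUFA3). NDUFC1 read 5326, 5045 and 5498 units in the controls and 4489, 4479 and 4308 after ING2 siRNA. Its ING2 siRNA arrays were all lower and close together (log2 change -0.26, SE 0.08, limma adjusted p = 0.0637). NDUFC1 and NDUFS4 passed after each array was centred on its median (limma adjusted p of 0.0374 and 0.0422) and not after quantile normalization or cyclic loess.

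The 8 NDUFAF assembly factors, which build complex I but do not stay in it, had a median of -0.09, with 6 below 0. None passed (1 at an unadjusted p under 0.05, against 6515 of all 19777 genes). They ran from NDUFAF6 (-0.27, SE 0.09, limma adjusted p = 0.0845), with 800, 922 and 820 units in the controls and 708, 754 and 650 after ING2 siRNA, to NDUFAF3 (0.02). NDUFAF6 had no overlap between the groups, whereas NDUFAF3 had overlapping groups.

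Of the 3 noncoding members, 1 rose and 2 did not pass the test. NDUFB2-AS1 read 154, 140 and 166 units in the controls and 207, 190 and 193 after ING2 siRNA. The ING2 siRNA arrays were all higher, at a dim level. The log2 change was 0.36 (SE 0.09, limma adjusted p = 0.0403). Its RefSeq gene overlaps NDUFB2 by 370 bases on the opposite strand, and NDUFB2 itself, a membrane arm subunit, had -0.12 (SE 0.11, limma adjusted p = 0.456). The dimmer probe sets of NDUFB2, 218201_at and 240391_at, were further below 0, at -0.34 and -0.40, and did not pass (limma adjusted p of 0.0947 and 0.0582 over probe sets). NDUFV1-DT, a transcript that starts near NDUFV1 and runs the other way, read 232, 245 and 274 units in the controls and 298, 294 and 303 after ING2 siRNA (log2 change 0.26, limma adjusted p = 0.0795). NDUFV2-AS1 had -0.02. The 10% classes of genes by intensity that hold these 3 transcripts had median log2 changes of 0.11, 0.05 and 0.15, and the part of this trend in their values was not tested.

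Most members lay on the lower side, whether or not they passed the test. The log2 change was below 0 for 44 of 54 members (81.5%), against 38.3% of all genes and 73.1% of the brightest 10% of genes. Of the 48 members not called, 39 were below 0. After median centring 50 of the 54 members were below 0, after quantile normalization 32 and after cyclic loess 34. The median was -0.13 over the members and -0.14 over the 43 subunits, against 0.06 over all genes and -0.09 over the brightest 10% of genes. After median centring it was -0.20 over the members and -0.16 over the brightest 10% of genes. After quantile normalization it was -0.02 over the members and after cyclic loess -0.03, with the brightest 10% of genes at 0.01 and 0.02. The groups did not overlap for 23 members (42.6%), against 36.5% of all genes and 45.0% of the brightest 10% of genes. These differences in side and in median were not tested, since members are not replicates.

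**Figure D4:**
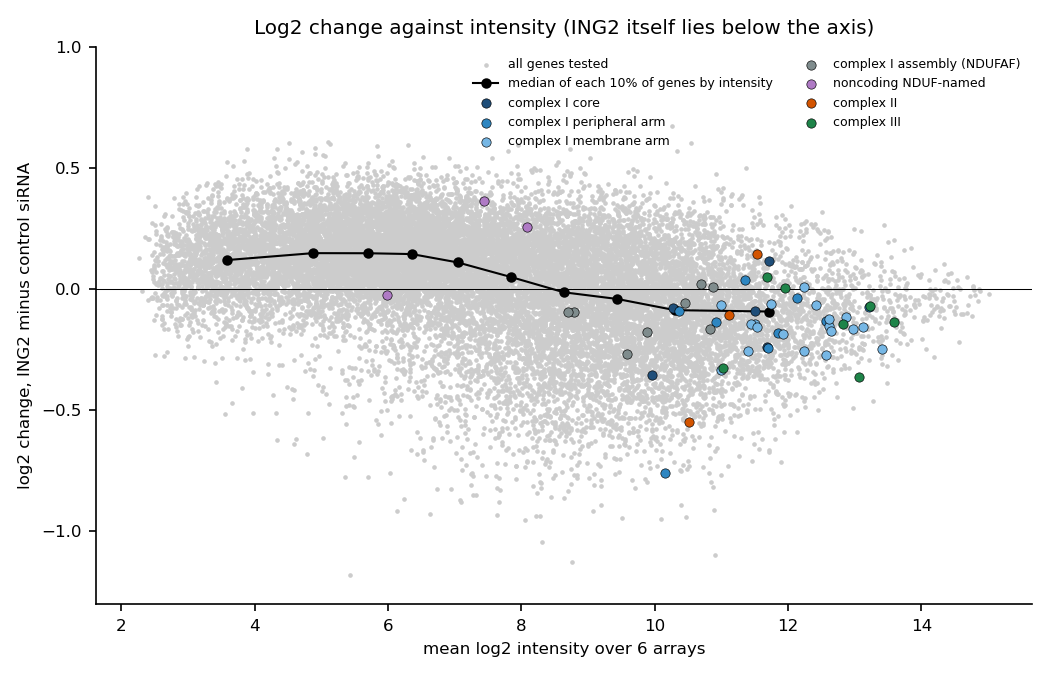
Log2 change (vertical axis) against mean log2 intensity over the 6 arrays (horizontal axis) for all genes (grey), the members (coloured by group) and the median of each 10% of genes by intensity (black line). The line goes from above 0 at low intensity to -0.09 in the brightest 10% of genes, which holds 39 of the 54 members.

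The lower side was most marked in 1 array. Relative to the control mean, the median member lay at 0.03, -0.04 and 0.00 in the controls and at -0.04, -0.05 and -0.28 after ING2 siRNA. The third ING2 siRNA array stands apart, and the other ING2 siRNA arrays lie near the controls. Over the brightest 10% of genes the same array was also the lowest, at -0.15 against -0.07 and -0.05, while over all genes it was not (0.05 against 0.07 and 0.04). It held the lowest ING2 siRNA value for 47 of 54 members and the lowest of all 6 arrays for 41. Without it the median over the members was -0.04, with 39 of 54 below 0. No member was then called by limma (9 at an unadjusted p under 0.05, which was not counted over all genes). Whether the distance of this array is technical was not tested.

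**Figure D5:**
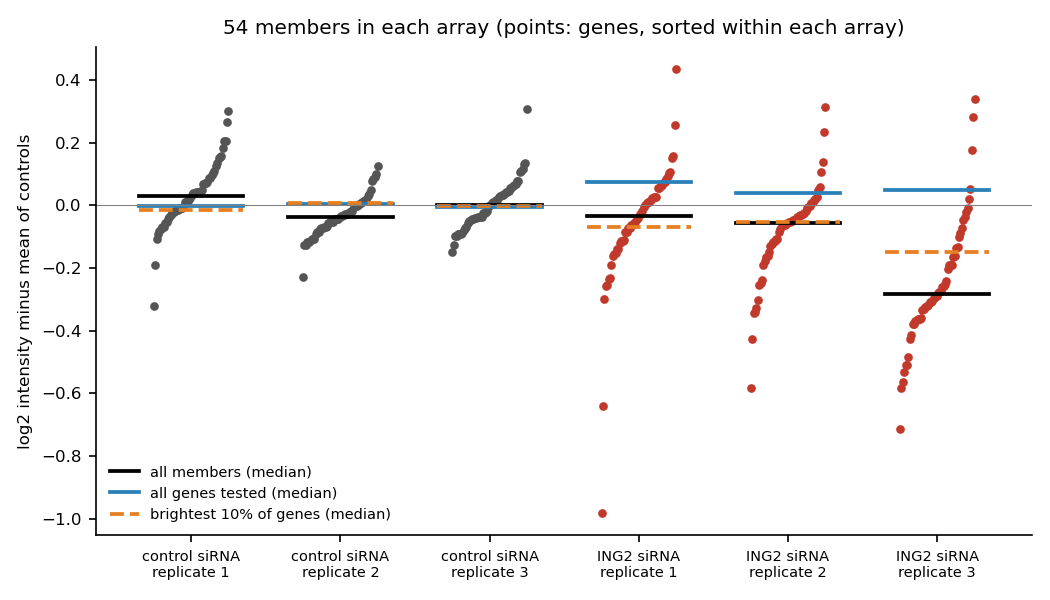
Log2 intensity minus the control mean (vertical axis) of the 54 members in each of the 6 arrays, sorted within each array, with the medians of the members (black), all genes (blue) and the brightest 10% of genes (orange, dashed). The members' median is -0.28 in ING2 siRNA replicate 3 and lies between -0.05 and 0.03 in the other 5 arrays.

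The calls differed in how well they held. NDUFA5 passed in all 11 alternatives that keep the 6 arrays, with log2 changes of -0.86 to -0.46, and SDHD in 10 of 11. NDUFS1, UQCRB and UQCRC2 did not pass after quantile normalization (limma adjusted p of 0.123, 0.0664 and 0.142) or cyclic loess (0.0964, 0.094 and 0.107). NDUFB2-AS1 did not pass after median centring (0.0653) or cyclic loess (0.0565). With control replicate 2, control replicate 3, ING2 siRNA replicate 1 or ING2 siRNA replicate 3 left out, none of the 6 passed by limma. Each of the 6 had an unadjusted p under 0.05 there. They had been picked by their p in these same arrays, so that is no support for the calls. In those fits limma called 2 to 3 of all 19777 genes. The log2 changes of the 5 subunits were below 0 in the 11 alternatives that keep the 6 arrays. With 1 array left out a value below 0 was fixed in advance, since every ING2 siRNA array was below every control for these 5. In those fits NDUFA5 was at -0.61 or lower and SDHD at -0.49 or lower.

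Probe sets that name a member together with another gene were kept apart. There were 12, of which 11 had a log2 change below 0 and none passed the test by limma (3 at an unadjusted p under 0.05). Among the 19777 genes, tested apart from these probe sets, 6515 were under that unadjusted p. The lowest of the 12 besides that of SDHA were 232169_x_at for NDUFS8 (-0.32) and 223808_s_at for NDUFS3 with PTPMT1 (-0.30). NDUFS8 is a core subunit that shares its annotation with microRNA genes. Probe set 232169_x_at read 251, 155 and 158 units in the controls and 139, 151 and 150 after ING2 siRNA, with the first control far above the rest. The brighter probe sets of NDUFS8, 203190_at and 203189_s_at, had -0.15 and -0.22. The probe set of UQCRH, the hinge protein of complex III, and its retrocopy UQCRHL read 9164, 9049 and 9144 units in the controls and 8824, 8581 and 6871 after ING2 siRNA. Only the third ING2 siRNA array was far below the others (log2 change -0.18, SE 0.11).

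In each neighbouring part of oxidative phosphorylation 0 to 1 gene was called. Over all genes 4.67% were lower and 3.62% higher, and in the brightest 10% of genes 7.79% and 0.556%. Lists of 7 to 18 genes are too small to be set against these shares. The same holds for the lists of assembly factors and regulators below. Of 15 complex IV subunits and cytochrome c, none passed (5 at an unadjusted p under 0.05), with a median of -0.06. Under that unadjusted p were 6515 of all 19777 genes and 648 of the 1978 brightest. The lowest was COX7C (-0.32, SE 0.09, limma adjusted p = 0.054), followed by COX7A2 (-0.27, limma adjusted p = 0.0912), both small subunits. The 4 genes above 0, COX7A1, COX4I2, COX6A2 and COX6B2, were dim, at the 33.6th to 41.8th intensity percentiles. The 11 below 0 were brighter. COXFA4, a complex IV subunit whose older name is NDUFA4, had -0.28 (SE 0.11, limma adjusted p = 0.11). Of 18 ATP synthase genes, 1 fell, ATP5PF of the peripheral stalk (-0.30, SE 0.08, limma adjusted p = 0.0493), with a median of -0.14. ATP5PF did not pass after quantile normalization (limma adjusted p = 0.142) or cyclic loess (0.154). Of the 13 subunits encoded in the mitochondrial genome, 7 were measured and none passed (2 at an unadjusted p under 0.05). All 7 were below 0, with a median of -0.12, and the lowest was COX3 (-0.47, SE 0.14, limma adjusted p = 0.057). The probe set of COX3 lay at the 72.5th intensity percentile, while the median of the 7 was the 99.8th. ATP6 had the next smallest p, with a log2 change of -0.22 (SE 0.08, limma adjusted p = 0.0944).

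Assembly factors of complexes II and III numbered 10, with a median of -0.16, and 1 fell. SDHAF3, which helps to insert iron-sulfur clusters into succinate dehydrogenase, read 321, 382 and 443 units in the controls and 261, 224 and 231 after ING2 siRNA. The groups did not overlap, and the log2 change was -0.67 (SE 0.12, limma adjusted p = 0.0227), close in size to NDUFA5. SDHAF4, which acts on the flavoprotein SDHA, had -0.62 (SE 0.17) and just missed the threshold (limma adjusted p = 0.0503). Of 10 further complex I assembly factors none passed (4 at an unadjusted p under 0.05), with a median of -0.11, TMEM70 at -0.25 and FOXRED1 at 0.21. Over all 19777 genes 6515 were under that unadjusted p.

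Among 12 nuclear regulators of respiratory genes, 1 fell. GABPA, the DNA-binding subunit of an ETS family factor, read 246, 386 and 396 units in the controls and 203, 232 and 206 after ING2 siRNA. Its first control lay near the ING2 siRNA arrays, without overlap. The log2 change was -0.65 (SE 0.16, limma adjusted p = 0.0413), and it passed after each of the 3 other scalings. GABPB1, its partner, had -0.10, NRF1 -0.09, YY1 -0.29 (limma adjusted p = 0.0922) and the coactivator PPARGC1B 0.28 (0.0808), none past the threshold. The median of the 12 was -0.10. SDHAF3 and GABPA did not pass with control replicate 2, control replicate 3, ING2 siRNA replicate 1 or ING2 siRNA replicate 3 left out (limma adjusted p of 0.0652 to 0.146).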

How the data were processed

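Biotinylated cRNA made from total RNA was read on 6 one-colour arrays, per the labels' protocols. The values deposited by the authors are linear intensity per probe set. The submitters' processing notes name RMA and R 2.12. The sources used here do not say how linear values were made, or whether background was corrected or probe sets filtered. Of 54675 probe sets, 62 controls were left out, 41091 named 1 gene, 1801 named several and 11721 were listed with none. Genes were named through a 2016 platform annotation and updated by gene identifier to a RefSeq table (GRCh38.p14) that held 19735 of the 19777 genes.

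Values were log2-transformed without a pseudocount or a filter, so dim probe sets stay in the test with the bright ones. A gene's value is that of its brightest probe set by mean over the 6 arrays. A limma fit (lmFit, eBayes; limma 3.58.1, R 4.3.3) without covariates gave ING2 siRNA minus control for all 19777 genes, called at a Benjamini-Hochberg adjusted p under 0.05. Single values were compared by exact two-sided permutation. The script was tested on simulated data. The number of arrays, 3 per group, limits the precision of every value.

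Members and lists were chosen with earlier results of these data known. Members named are those of complexes II and III, the core of complex I, every member called, the highest and lowest of each group, those called under another scaling only, and those whose probe sets lie on both sides of 0 with 1 called; in other lists, the called genes, or the pair with the smallest p. Other names were chosen after their values were seen. Alternatives were median centring, quantile normalization, cyclic loess (3 iterations), leaving out the dimmest 25% of probe sets, a pseudocount of 16, the mean or the most variable (largest interquartile range) probe set of a gene, each probe set on its own, array weights, robust eBayes with an intensity trend, replicate number as a block, each array left out, subunits only, and a threshold of 0.1. Motifs were counted in the 250 bases before each RefSeq start.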

Additional observations from a re-analysis of the deposited data

How the results depend on the processing

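In the deposited values 5 members were called lower and 1 higher, with a median log2 change of -0.13. Counts called lower were 7 after median centring, 2 after quantile normalization and 2 after cyclic loess, against 7.33%, 3.16% and 3.45% of all genes. With each probe set on its own 3 members were lower by their brightest probe set, against 5.12% of all probe sets that name 1 gene. With the most variable probe set 8 were lower (9.88% of all genes), with an intensity trend and robust eBayes 8 (7.26%), with array weights 8 (9.76%) and at an adjusted p under 0.1 there were 10 (10.2%), so these counts went up along with those over all genes. Counts called higher were 0 after median centring, 0 after cyclic loess, 0 over subunits only and 2 at an adjusted p under 0.1 (1.31%, 2.26%, 3.62% and 12.6% of all genes). The median was -0.20 after median centring and -0.025 after quantile normalization. With each array left out in turn, 0 to 5 members were lower and 0 to 1 higher, and the median ran from -0.18 to -0.04. The calls were lost without control replicate 2, control replicate 3, ING2 siRNA replicate 1 or ING2 siRNA replicate 3, in fits of fewer arrays that called 2 to 3 genes in all by limma.

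Among named members with values near 0, signs turned. After median centring CYC1 was -0.023, NDUFA3 -0.063, NDUFAF3 -0.051, NDUFV3 -0.033 and UQCRC1 -0.067. After quantile normalization NDUFS3 was 0.031, NDUFS7 0.038, SDHC 0.024 and UQCR10 0.013. After cyclic loess NDUFS3 was 0.017, NDUFS7 0.016 and UQCR10 0.049. With the mean of all probe sets NDUFS7 was 0.011, with the most variable probe set NDUFV3 was -0.016, and with array weights NDUFV2-AS1 was 1.0e-04. With 1 array left out, NDUFA3 ran from -0.014 to 0.045, NDUFAF3 from -0.021 to 0.081, NDUFS7 from -0.19 to 0.071, NDUFV2-AS1 from -0.060 to 0.025 and UQCRC1 from -0.026 to 0.041. None of these was called in the deposited values, and the cause was not tested.

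Arrays of both groups share replicate numbers, but the labels do not pair them. Deviations from the group means correlated at 0.26, 0.29 and -0.02 for the same number and at -0.31 to 0.10 for different numbers. These values do not settle whether the arrays were paired. The numbers were not taken as pairs because the labels give none. With the replicate number as a block, 7 members were lower and 1 higher, with the median at -0.13, against 9.50% and 8.24% of all genes in that fit. NDUFB7 (limma adjusted p = 0.0288) and NDUFAF6 (0.0495) then passed.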
